A study of Mus musculus with 2 samples.

Results

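The genes described are 8 transcripts of neutrophil proteins: S100a8 and S100a9, which encode the 2 subunits of calprotectin, Ngp, Camp and Ltf, which encode proteins of the secondary granules, Mmp8 and Mmp9, which encode granule metalloproteinases, and Retnlg, which encodes a resistin-like secreted protein. They were chosen by symbol, and all 8 were found among the 31253 genes of the deposited tables. Mouse pancreas was dissociated and captured on the BD Rhapsody system, which tags each cell's RNA with a barcode and each molecule with a unique identifier (UMI). The CP+EVs library came from pancreas labelled as treated with Cae+EVs and the CP library from pancreas labelled as treated with Cae; the condition label of both is Cae-induced acute pancreatitis, although the study's title speaks of chronic pancreatitis and of exercise-induced extracellular vesicles. Cae treatment is therefore shared by both groups, no untreated pancreas is part of the comparison, and the labels give neither strain nor age nor how many animals went into each library.

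Each group was 1 library, so no difference between the groups had a replicate check, no test was run, and the difference between treatments cannot be told apart from that between 2 preparations. The intervals below are exact 95% intervals for counting error only. The CP+EVs library held 8845 barcodes with a median of 2884 UMIs, and the CP library held 13507 barcodes with a median of 1417 UMIs; 8799 CP+EVs and 13409 CP barcodes passed the filters. The libraries shared 118 barcode sequences, of which 0 were neutrophil-like in CP+EVs and 17 in CP. Levels are UMIs of a gene per 1000000 UMIs of all genes (CPM) in a stated set of cells.

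Neutrophils make these proteins in a sequence as they mature in bone marrow. Dividing precursors fill primary granules first, and myelocytes and metamyelocytes then transcribe the secondary granule genes Ngp, Camp, Ltf and Lcn2. The metalloproteinase genes Mmp8 and Mmp9 peak later still. Mature cells in blood and tissue switch to receptor and cytokine genes such as Cxcr2 and Il1b. S100a8 and S100a9 transcripts are abundant through much of this sequence, and their product binds calcium and zinc and is released from inflamed tissue. Transcription factors of the C/EBP family, C/EBP epsilon among them, drive secondary granule genes.

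By GENCODE vM21 on the mm10 build the calprotectin genes were neighbours on chromosome 3, with S100a8 (ENSMUSG00000056054) at chr3:90668978-90670035 on the plus strand and S100a9 (ENSMUSG00000056071) at chr3:90692632-90695721 on the minus strand, 22596 bases apart. Camp (ENSMUSG00000038357) at chr9:109847379-109849617 on the minus strand, Ngp (ENSMUSG00000032484) at chr9:110419747-110423012 on the plus strand and Ltf (ENSMUSG00000032496) at chr9:111019271-111042767 on the plus strand followed each other on chromosome 9 with gaps of 570 kb and 596 kb. Mmp8 (ENSMUSG00000005800) lay far from them at chr9:7558456-7568485, Mmp9 (ENSMUSG00000017737) at chr2:164940780-164955850 and Retnlg (ENSMUSG00000022651) at chr16:48872621-48874496. The promoters of the secondary granule genes and of the calprotectin pair are shown, because the 4 highest pairwise correlations among the 8 genes in the cells below lie within these groups. They come from RefSeq on GRCm38.p6, run 5′ to 3′ on the gene's own strand from 250 bases before to 50 after the annotated start, and carry in capitals the matches on either strand to a C/EBP-like motif searched as TTNNGNAA.
Ngp (chr9:110419558-110419857, plus strand): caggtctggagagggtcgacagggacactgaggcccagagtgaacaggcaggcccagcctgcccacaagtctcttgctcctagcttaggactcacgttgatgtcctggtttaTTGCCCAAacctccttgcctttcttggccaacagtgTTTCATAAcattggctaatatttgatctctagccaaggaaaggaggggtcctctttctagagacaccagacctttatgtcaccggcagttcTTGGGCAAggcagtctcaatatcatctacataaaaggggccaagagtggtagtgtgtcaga
Camp (chr9:109849407-109849706, minus strand): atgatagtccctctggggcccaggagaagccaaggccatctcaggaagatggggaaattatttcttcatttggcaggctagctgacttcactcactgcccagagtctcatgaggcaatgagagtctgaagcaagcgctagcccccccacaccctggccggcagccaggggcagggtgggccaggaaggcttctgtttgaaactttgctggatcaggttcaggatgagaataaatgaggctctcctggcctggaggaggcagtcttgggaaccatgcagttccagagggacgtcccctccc
Ltf (chr9:111019042-111019341, plus strand): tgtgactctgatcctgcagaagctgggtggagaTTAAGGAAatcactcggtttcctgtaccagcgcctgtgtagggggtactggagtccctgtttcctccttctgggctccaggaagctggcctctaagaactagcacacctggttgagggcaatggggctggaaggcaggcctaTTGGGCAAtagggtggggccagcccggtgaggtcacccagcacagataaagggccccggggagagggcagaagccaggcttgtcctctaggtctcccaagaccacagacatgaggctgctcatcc
S100a8 (chr3:90668821-90669120, plus strand): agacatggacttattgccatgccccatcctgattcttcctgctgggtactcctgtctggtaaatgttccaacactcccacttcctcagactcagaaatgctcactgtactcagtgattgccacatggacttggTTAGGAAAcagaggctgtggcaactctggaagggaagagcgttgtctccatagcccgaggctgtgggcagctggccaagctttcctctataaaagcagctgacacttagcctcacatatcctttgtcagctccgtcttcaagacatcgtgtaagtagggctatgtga
S100a9 (chr3:90695672-90695971, minus strand): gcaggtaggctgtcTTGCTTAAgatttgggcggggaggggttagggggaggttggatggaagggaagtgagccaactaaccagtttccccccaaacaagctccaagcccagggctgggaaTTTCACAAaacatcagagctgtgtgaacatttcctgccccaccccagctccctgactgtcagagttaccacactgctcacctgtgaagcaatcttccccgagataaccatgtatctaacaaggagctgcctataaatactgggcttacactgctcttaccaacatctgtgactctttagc
These windows held 3 matches for Ngp, 0 for Camp, 2 for Ltf, 1 for S100a8 and 2 for S100a9, and 40.7% of 32851 promoter windows held at least 1. Of the 8 genes 7 matched the promoter table and Mmp9 did not; Mmp8 held 2 matches and Retnlg 1. The match is a description of the letters and its absence in Camp says only that they are not in this window.

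In all kept cells every one of the 8 genes was lower in CP+EVs. S100a8 stood at 51.1 CPM in CP+EVs, against 2185 CPM in CP, and S100a9 at 51.2 CPM in CP+EVs, against 2286 CPM in CP, so calprotectin transcripts were 42.7-fold (40.9 to 44.7) and 44.7-fold (42.7 to 46.7) lower in CP+EVs. Among the secondary granule genes, Ngp, a cystatin-related granule protein, stood at 11.1 CPM in CP+EVs and 536 CPM in CP, Camp, the cathelicidin antimicrobial peptide precursor, at 0.805 CPM in CP+EVs and 52.8 CPM in CP, and Ltf, the iron-binding lactoferrin, at 2.65 CPM in CP+EVs and 135 CPM in CP. Of the metalloproteinases, Mmp9 (gelatinase B) stood at 7.25 CPM in CP+EVs and 415 CPM in CP, a 57.3-fold difference, and Mmp8 (neutrophil collagenase) at 8.73 CPM in CP+EVs and 161 CPM in CP, an 18.4-fold difference. Retnlg stood at 32.3 CPM in CP+EVs and 611 CPM in CP, 18.9-fold lower in CP+EVs. All 8 were thus at least 2-fold lower in CP+EVs, where 10.7% of the 7155 genes that passed the filter on low values were, and 0 were at least 2-fold higher, where 5.02% were, and the median log2 ratio was -5.54 over the 8 genes and -0.18 over all. With 1 library a group, fewer cells and less RNA per cell cannot be told apart at this level, and the cell counts below stand beside it.

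Neutrophil-like barcodes were found by clustering without the 8 genes, the other granule genes and the primary granule genes, and named from 10 other neutrophil markers, all of which were detected in them in both libraries. They numbered 22 of 8799 kept cells in CP+EVs (0.25%, 0.157 to 0.378) and 2643 of 13409 in CP (19.7%, 19.0 to 20.4). The 22 CP+EVs barcodes held 68.3% of that library's S100a8 UMIs, 65.7% of its Ngp and 53.8% of its Mmp9, and the 2643 CP barcodes held 69.8%, 52.6% and 77.0% of the CP library's. The largest share outside was that of Camp in CP, where only 38.0% of UMIs fell in neutrophil-like barcodes; its other source is described below. Acinar cells, the exocrine cells of the pancreas, were 25.5% of kept cells in CP+EVs and 0.0895% in CP, so the make-up of the 2 suspensions differed far beyond the neutrophils. A cluster drawn mostly from 1 library, as the neutrophil clusters were, may carry features of that library.

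Within neutrophil-like barcodes 0 of the 8 genes were at least 2-fold lower in CP+EVs. S100a8 reached 30345 CPM in CP+EVs and 15078 CPM in CP, S100a9 28923 CPM in CP+EVs and 16084 CPM in CP, Ngp 6317 CPM in CP+EVs and 2785 CPM in CP. Mmp8 reached 4806 CPM in CP+EVs and 1220 CPM in CP (3.94-fold higher, 3.42 to 4.51), and Retnlg 18996 CPM in CP+EVs and 3822 CPM in CP (4.97-fold higher, 4.63 to 5.33). Mmp9, at 3384 CPM in CP+EVs and 3160 CPM in CP, had a ratio of 1.07 whose interval of 0.906 to 1.26 included 1. In this comparison 5 of the 8 genes (S100a8, Ngp, Camp, Mmp8 and Retnlg) were at least 2-fold higher in CP+EVs, where 24% of 5957 genes were, and 0 were at least 2-fold lower, where 21.2% were. The CP+EVs figures rest on 22 barcodes. Markers of acinar cells summed to 11032 CPM in the CP+EVs neutrophil-like barcodes, with 2 of 8 at 0, and to 93.1 CPM in the CP ones, with 1 of 8 at 0. At least 3 such UMIs were found in 22 of the 22 CP+EVs barcodes and in 0.946% of the CP ones, and their part in the differences was not tested. After removing the median log2 shift of 0.23 between the 2 sums only Mmp8 and Retnlg, 2 of 8, stayed at least 2-fold higher, and the log2 ratio of Mmp9 turned to -0.13.

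The neutrophil-like barcodes formed 2 clusters, and the small one held 5 of the 22 in CP+EVs (22.7%, 7.82 to 45.4) and 77 of the 2643 in CP (2.91%, 2.31 to 3.63). The 5 CP+EVs barcodes of the small cluster held 90, 134, 223, 298 and 334 S100a8 UMIs and 29, 90, 102, 217 and 223 Retnlg UMIs each, and 2 of the 5 held no Camp UMI and 3 no Ltf UMI. In the large cluster taken alone, 17 CP+EVs and 2566 CP barcodes, S100a8 was 10335 CPM in CP+EVs and 9830 CPM in CP (ratio 1.05, 0.929 to 1.19) and S100a9 was 15464 CPM in CP+EVs and 12729 CPM in CP (ratio 1.21, 1.10 to 1.34). There Camp and Ltf had 0 UMIs in the 17 CP+EVs barcodes, against 33.7 and 114 CPM in CP, and the exact interval for 0 UMIs reaches 143 CPM. Mmp8 in the large cluster stood at 1010 CPM in CP+EVs and 504 CPM in CP, and the interval of the ratio was 1.31 to 2.94. Mmp9 in the large cluster was lower in CP+EVs, with 1476 CPM in CP+EVs and 2907 CPM in CP (1.97-fold lower, 1.43 to 2.78). Retnlg kept the widest gap, with 7033 CPM in CP+EVs and 1285 CPM in CP (5.47-fold higher, 4.69 to 6.34). Of the 181 Retnlg UMIs of the 17 CP+EVs barcodes, 3 barcodes held 76, 45 and 26, and the median was 1 UMI per barcode. Within the small cluster no gene differed by as much as Retnlg did in the large one. Retnlg there was 35563 CPM in CP+EVs and 30359 CPM in CP, Mmp8 10061 CPM in CP+EVs and 8716 CPM in CP, Mmp9 6026 CPM in CP+EVs and 5810 CPM in CP, and Ltf 3389 CPM in CP+EVs and 7807 CPM in CP. Ngp was 14849 CPM in CP+EVs and 28030 CPM in CP (ratio 0.530, 0.469 to 0.597) and Camp 1076 and 1920 CPM (0.561, 0.341 to 0.871). S100a8 had a ratio of 0.829 (0.780 to 0.881) and S100a9 of 0.929 (0.868 to 0.994). Ngp and Camp, at least 2-fold higher in CP+EVs over all neutrophil-like barcodes, were lower in CP+EVs in the small cluster. In the large cluster the ratio of Ngp was 0.418 (0.114 to 1.07), from 4 UMIs in CP+EVs.

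**Figure D1:**
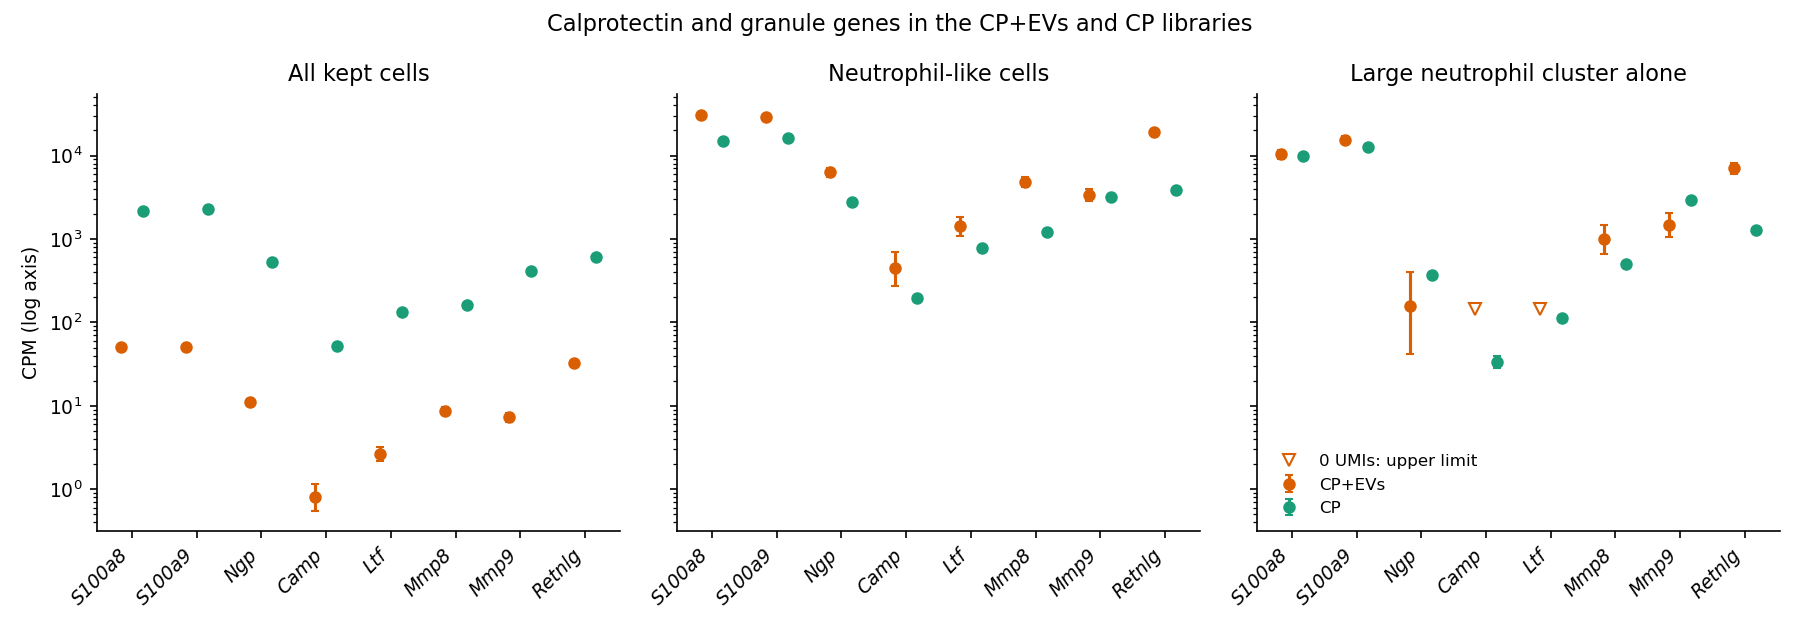
Level of each gene in CP+EVs (orange) and CP (green) in CPM on a log axis, in all kept cells, in neutrophil-like cells (22 and 2643) and in the large neutrophil cluster (17 and 2566). Bars are exact Poisson 95% intervals for 1 library a group and open triangles are upper limits where 0 UMIs were found; every gene is lower in CP+EVs in the first panel, none is at least 2-fold lower in the second.

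The CP library, with 2643 neutrophil-like barcodes, showed how the 8 genes were spread among cells. Each barcode was thinned at random to 500 UMIs so that depth could not set the shares. S100a9 was then found in 91.0% of barcodes and S100a8 in 83.2%, with medians of 5 and 3 UMIs per 500, and Mmp9 in 67.5% with a median of 1. Retnlg was found in 22.0%, Mmp8 in 16.5%, Ngp in 7.57%, Ltf in 3.86% and Camp in 2.01%. Before thinning, at a median of 1731 UMIs, the shares were 96.7% for S100a9, 38.8% for Retnlg and 28.8% for Mmp8. B cells of the same library, which should not express these genes, had S100a9 in 18.8%, S100a8 in 15.6%, Retnlg in 6.62%, Mmp9 in 3.85%, Ngp in 3.21%, Mmp8 in 1.92%, Camp in 0.641% and Ltf in 0.214% of thinned barcodes, and S100a9 in 56.2% before thinning at a median of 2136.5 UMIs.
The genes also differed in how unevenly their UMIs fell. The variance over the mean of UMIs per 500 (the Fano factor, near 1 for pure counting) was 18.7 for Ngp, 14.3 for Retnlg, 10.6 for S100a8, 7.91 for Ltf, 6.45 for S100a9, 3.86 for Mmp8, 2.45 for Camp and 1.58 for Mmp9; it rises with the mean as well as with unevenness. The 265 barcodes richest in each gene held 99.3% of unthinned Ngp UMIs, 93.4% of Retnlg, 87.6% of Mmp8, 63.2% of S100a8, 50.2% of S100a9 and 38.1% of Mmp9. Mmp9 was therefore the most evenly spread of the 8 and Ngp among the most concentrated, with a largest count of 798 UMIs in 1 barcode and 0 in most.

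**Figure D2:**
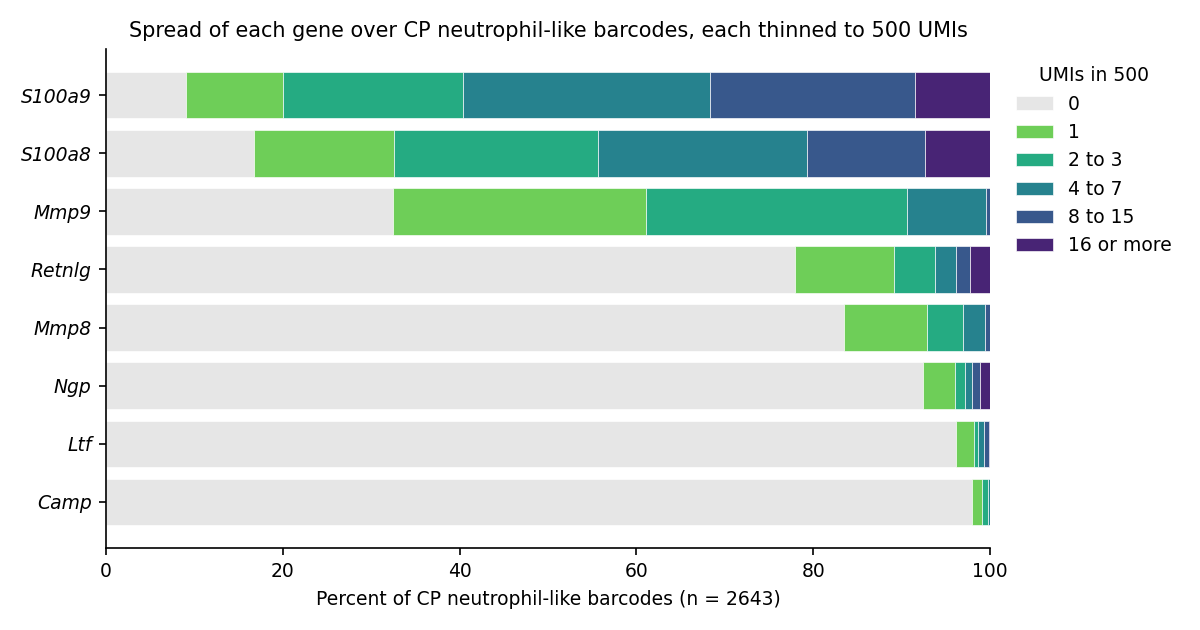
Share of the 2643 CP neutrophil-like barcodes at each UMI count per gene after thinning every barcode to 500 UMIs. S100a9, S100a8 and Mmp9 were found in most barcodes, and Ngp, Ltf and Camp in under 8%.

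The concentrated UMIs lay in the small cluster, which had not been built from these genes. Relative to the large cluster of CP, Ngp was 75.4-fold higher in the small one (71.8 to 79.3), with 28030 against 372 CPM, Ltf 68.5-fold higher (7807 against 114 CPM) and Camp 57.0-fold higher (1920 against 33.7 CPM). Retnlg was 23.6-fold higher (30359 against 1285 CPM), Mmp8 17.3-fold (8716 against 504 CPM), S100a8 7.12-fold (69984 against 9830 CPM) and S100a9 4.02-fold (51183 against 12729 CPM). Mmp9 had the smallest ratio of the 8 (5810 against 2907 CPM), with an interval of 1.92 to 2.08 and a value just under the 2-fold limit. Of the 8 genes 7 were at least 2-fold higher in the small cluster, against 9.04% of 5318 genes. The small cluster was deeper, with a median of 5620 UMIs in CP against 1701.5 in the large one. After thinning, Ngp was found in 69 of its 77 barcodes (89.6%) and in 5.11% of those of the large cluster (4.29 to 6.03), against 97.4% and 11.5% before thinning. The thinned share of the large cluster lay near those of CP eosinophil-like (7.93%) and CP fibroblast-like barcodes (4.85%) and was not read as expression. A few barcodes of the large cluster were nevertheless rich: Ngp, Camp and Ltf made 1% to 2% of UMIs in 9, 2% to 5% in 5, 5% to 10% in 6 and over 10% in 1 of the 2566, with a largest Ngp count of 408 UMIs.

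Other granule genes moved the same way. Of the 15 genes that passed the filter among 18 other granule genes, 14 were at least 2-fold higher in the small cluster and 0 lower, with a median log2 ratio of 3.50, beside -0.50 over all genes and 29% of genes at least 2-fold lower. They included Lcn2, a lipocalin that binds bacterial siderophores (14561 against 1279 CPM), Ifitm6 (8709 against 234 CPM), Cd177, a neutrophil surface antigen (1237 against 30.1 CPM), Cybb, the catalytic subunit of the phagocyte oxidase (2486 against 154 CPM), Ly6g (1464 against 82.1 CPM) and Olfm4 (447 against 16.2 CPM). The next list was not left out of the clustering and could help to set the clusters, so its split is a description and partly built in. Of 14 genes of activated or tissue neutrophils, 13 were at least 2-fold lower in the small cluster and 0 higher, with a median log2 ratio of -3.62. Il1b, the cytokine interleukin 1 beta, stood at 1543 against 13333 CPM, Cxcl2, a chemokine for neutrophils, at 548 against 6497 CPM, and Csf3r, the receptor for granulocyte colony-stimulating factor, at 454 against 2305 CPM. Cxcr2, the receptor for that chemokine, was the exception at 2221 against 2869 CPM. Outside these lists, and among genes that built the clusters, the small cluster was led by Stfa3, Gpr27, Adpgk and Itgb2l, and the large one by Ly6i, Chac1, Il1a, Clec4n and Pou2f2. Summed CPM of 6 fibroblast markers was 2393 in the small cluster and 3770 in the large one, with at least 3 such UMIs in 93.5% and 79.4% of barcodes; all 6 fibroblast markers were detected in both. The 12 macrophage or monocyte markers summed to 3078 CPM in the small cluster, with 1 of 12 at 0, and to 1568 CPM in the large one, with 0 of 12 at 0, and at least 3 such UMIs were found in 94.8% and 46.4% of barcodes. The part of either list in the results was not tested.

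Receptors, inhibitors and regulators around these genes are read against the 9.04% of genes that were at least 2-fold higher and the 29% that were at least 2-fold lower in the small cluster. Of 4 measured receptors of calprotectin 1 was at least 2-fold higher in the small cluster and 2 were lower; Bsg (basigin) stood at 26.4 against 69.2 CPM. The formyl peptide receptors Fpr1 (797 against 394 CPM) and Fpr2 (1228 against 523 CPM), which bind cathelicidin-derived and bacterial peptides, were the 2 genes of their list of 3 that were at least 2-fold higher. Of 3 measured inhibitors and partners of the metalloproteinases 2 were at least 2-fold higher and 0 lower: Lcn2, which also binds the Mmp9 protein, as above, and Timp2, an inhibitor of metalloproteinases, at 436 against 183 CPM. Among 5 measured factors of granulopoiesis 0 were at least 2-fold higher and 2 lower. The 2 were Csf3r, which is also in the activated list, and Runx1, at 59.4 against 225 CPM. Cebpb, at 658 against 1285 CPM, and Cebpd, at 398 against 644 CPM, did not reach 2-fold. Cebpe, below the filter on low values, stood at 19.8 against 2.74 CPM from 9 and 13 UMIs. Between libraries, in neutrophil-like cells, 24% of genes were at least 2-fold higher in CP+EVs and 21.2% lower. Of 14 genes of the activated list 0 were at least 2-fold higher in CP+EVs and 8 were lower. Among the 8, Cxcl2 stood at 2030 CPM in CP+EVs and 5978 CPM in CP. Ptgs2, the inducible cyclooxygenase, stood at 880 CPM in CP+EVs and 2583 CPM in CP. Others of the 8 rest on very few CP+EVs UMIs: 0 for Ccl4 and Ninj1, and 1 each for Icam1 and Siglecf. The ratio intervals of Ninj1 (0 to 1.89) and Icam1 (0.00585 to 1.30) included 1. Of 13 measured other granule genes 3 were at least 2-fold higher in CP+EVs, namely Cd177, Wfdc21 and Ly6g. The 1 that was lower was Olfm4, with 0 UMIs in CP+EVs and a ratio interval of 0 to 1.56. Lcn2, at 4241 CPM in CP+EVs and 2438 CPM in CP, did not reach 2-fold. Of 7 other S100 genes 1 was higher, S100a16, from 2 UMIs in CP+EVs (ratio interval 0.333 to 10.4). The 1 that was lower was S100a4, from 1 UMI in CP+EVs (0.00595 to 1.32), and both intervals included 1. S100a11, at 7129 CPM in CP+EVs and 4239 CPM in CP, did not reach 2-fold. Nor did S100a6, at 4241 CPM in CP+EVs and 3360 CPM in CP.

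In the clustering without granule genes a further set of granule-rich barcodes lay outside the neutrophil-like clusters. With those genes kept, the neutrophil cluster led by Ngp, Ltf and Camp held 139 CP barcodes, against 77, and the dendritic-like class 269, against 556. At resolution 2 a cluster of 117 CP barcodes led by Mpo, Elane, Ms4a3, Camp and Ngp was named macrophage or monocyte. Where the granule-rich barcodes fell under those settings was not followed. Barcodes with at least 10 UMIs of Ngp, Camp and Ltf together, making at least 1% of the barcode's UMIs, numbered 4 in CP+EVs and 125 in CP, a limit set after the values were seen. The 125 held 85.7% of the CP library's UMIs of those 3 genes; 72 were neutrophil-like, 24 were in the dendritic-like class, 24 were unnamed, 2 were in the macrophage or monocyte class and the T cell, eosinophil and fibroblast classes had 1 each. Of the 4 in CP+EVs, 3 were neutrophil-like and 1 was unnamed. In the CP dendritic-like class 12 barcodes lay between 0.1% and 0.5%, 0 between 0.5% and 1%, 3 between 1% and 2%, 4 between 2% and 5%, 17 between 5% and 10% and 1 above 10%; of these 25 at 1% or more, 1 had under 10 UMIs of the 3 genes and stayed among the other 532.
The 24 barcodes had 54008 CPM of Ngp, 11270 CPM of Ltf and 7650 CPM of Camp, which describe how they were chosen. The other 5 genes were not used to choose them. S100a8 stood at 51565 CPM and S100a9 at 43676 CPM, close to the small neutrophil cluster (0.737-fold and 0.853-fold of it). Mmp8 had 3 UMIs in all 24, 18.9 CPM (3.90 to 55.2), against 8716 CPM in the small cluster; Retnlg had 38 UMIs, 239 CPM (169 to 328), against 30359 CPM; and Mmp9 had 54 UMIs in 8 barcodes, 36 of them in 1, giving 340 CPM against 5810 CPM. Retnlg was thus 127-fold (92.4 to 179) and Mmp9 17.1-fold (13.1 to 22.8) lower in the 24 than in the small cluster.
Other genes separated the 24 barcodes from both neutrophil clusters. Mki67, a protein of dividing cells, had 2487 CPM and was found in 23 of the 24, against 39.6 CPM in the small cluster and 65.0 CPM in the large one, and the mitotic topoisomerase Top2a had 2008 CPM, against 8.81 and 18.1 CPM. Fcnb, a ficolin of immature myeloid cells, had 1310 CPM in the 24, against 85.9 CPM in the small cluster and 2.95 CPM in the large one. Chil3, a chitinase-like protein, had 7524 CPM, against 938 and 142 CPM. Lcn2 (13253 CPM) and Cd177 (1177 CPM) were close to the small cluster, and Cxcr2 (170 CPM) and Il1b (271 CPM) were far below the 2869 and 13333 CPM of the large cluster. Prtn3 and Ms4a3, of the list of primary granule genes, were far below the secondary ones and above their levels in both neutrophil clusters. Mpo rested on few UMIs in each set, and the rest of the list is not summarized here. Prtn3 (proteinase 3) had 220 CPM in the 24, against 13.2 CPM in the small cluster and 5.05 CPM in the large one, from 35 UMIs in 9 barcodes. Mpo (myeloperoxidase) had 31.5 CPM from 5 UMIs, against 4.4 and 2.53 CPM from 2 and 12 UMIs. Over all kept CP cells Mpo had 1067 UMIs, 20.7 CPM. Ms4a3, a membrane protein of granulocyte and monocyte precursors, had 139 CPM from 22 UMIs in 8 barcodes, against 2.20 and 0.842 CPM. Of 43 Elane (neutrophil elastase) UMIs 42 lay in 1 barcode.
The class name did not hold well for these 24: of the 8 dendritic markers Flt3, Zbtb46 and Xcr1 had 0 UMIs, and Cd74, the invariant chain of antigen presentation, had 938 CPM, against 10143 CPM in the other 532 barcodes. All 8 markers summed to 145 CPM in the 24, against 1203 CPM in the other 532, 6.60 CPM in the small neutrophil cluster and 44.8 CPM in the large one. The 10 neutrophil markers summed to 2531 CPM in the 24, against 14574 CPM in the small cluster and 20886 CPM in the large one. The other 532 barcodes also held cycling cells, with Mki67 in 32.3% of them. The 24 were left without a cell type name and are called granule-rich barcodes here. Without them the dendritic-like class had 41.9 CPM of Ngp, against 2185 CPM with them, and 4.43 CPM of Camp, against 308 CPM with them.

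**Figure D3:**
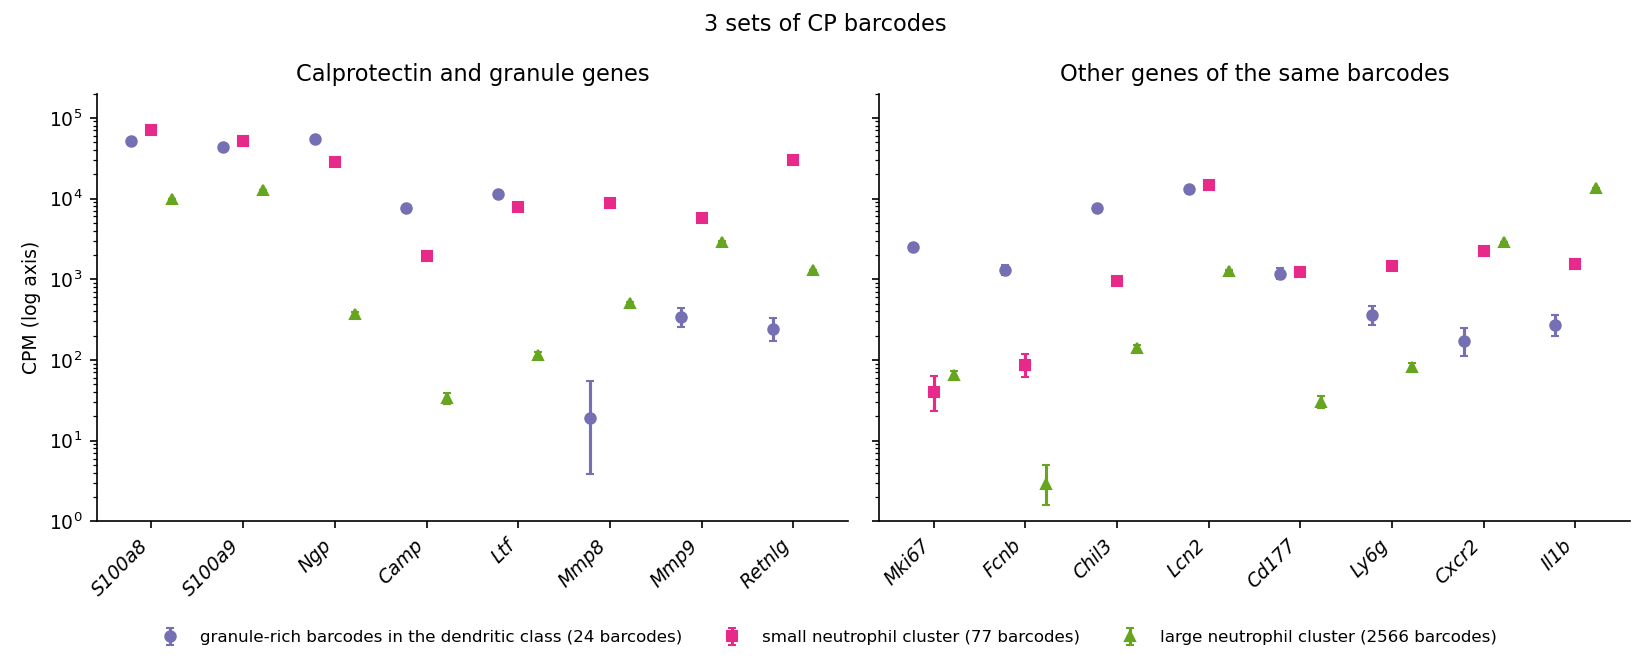
CPM (log axis) in 24 granule-rich barcodes of the CP dendritic-like class, 77 barcodes of the small neutrophil cluster and 2566 of the large one, with exact Poisson 95% intervals. Ngp, Camp and Ltf chose the first set; Mmp8, Mmp9 and Retnlg were highest in the small cluster, Mki67 and Fcnb in the 24 barcodes, and Il1b in the large cluster.

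Pairs of genes co-varied in groups across the 2643 CP neutrophil-like barcodes. The values are Pearson correlations of log2(1 + UMIs per 500) over barcodes of 1 library, given as descriptions. The highest of the 28 pairs were Ngp with Ltf (0.77), Camp with Ltf (0.69), S100a8 with S100a9 (0.69), Ngp with Camp (0.66), Mmp8 with Retnlg (0.57) and Ngp with Retnlg (0.54). Mmp9 stood apart with correlations between 0.00 and 0.12. Thinned barcodes with Ngp numbered 200, and they averaged 15480 CPM of Retnlg, 3420 CPM of Ltf, 890 CPM of Camp and 36850 CPM of S100a8, against 963, 33.6, 6.55 and 8492 CPM in the 2443 without. Mmp9 averaged 3700 CPM with Ngp and 2791 CPM without.
In the small cluster alone the correlations of the secondary granule genes with Retnlg were negative. Over its 77 barcodes Ltf with Retnlg was -0.71, Camp with Retnlg -0.53, Ngp with Retnlg -0.49, and Camp with Mmp9 -0.33. With Mmp8 the values were -0.29 for Ltf, -0.28 for Camp and -0.03 for Ngp, whereas Ngp with Ltf stayed at 0.73, Camp with Ltf at 0.57 and Mmp8 with Retnlg at 0.36. The calprotectin pair stayed at 0.52 and its correlations with the other 6 genes lay between -0.03 and 0.29 there. In the large cluster alone the calprotectin pair was 0.65, Camp with Ltf 0.62, Ngp with Camp 0.60 and Ngp with Ltf 0.57, from 24 barcodes with Camp, 55 with Ltf and 131 with Ngp.

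**Figure D4:**
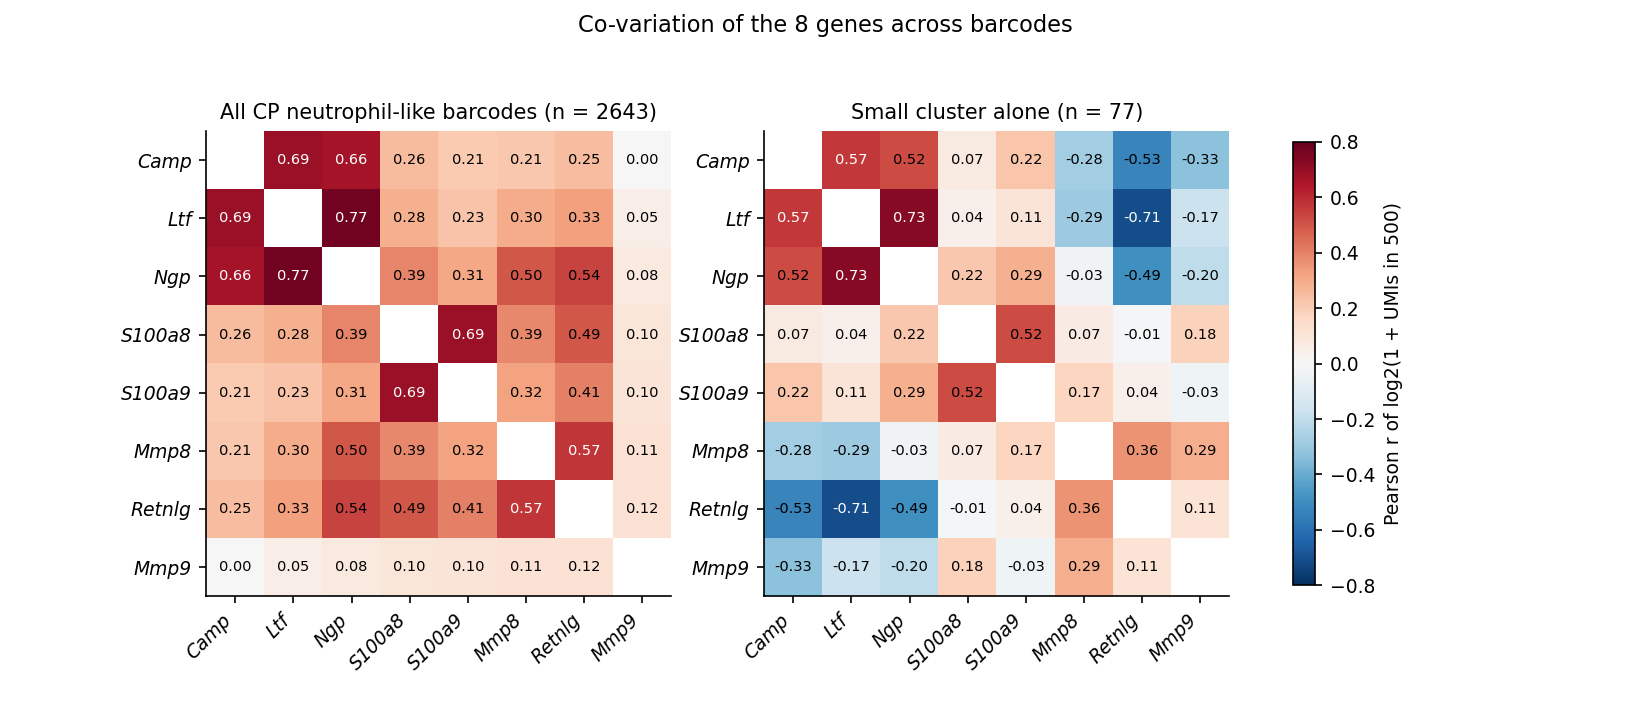
Pearson correlation of log2(1 + UMIs in 500) for each pair of the 8 genes over the 2643 CP neutrophil-like barcodes (left) and over the 77 of the small cluster (right). Camp, Ltf and Ngp form a block in both panels, and their correlations with Retnlg turn negative in the right panel.

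The 8 genes were also followed along lists they are not part of. Barcodes with 0, 1, 2 to 3 and 4 or more UMIs per 500 of the 18 other granule genes numbered 751, 674, 721 and 497. Over these bins S100a8 was 5411, 6748, 9024 and 26153 CPM, Retnlg 362, 409, 821 and 8668 CPM and Mmp8 248, 297, 438 and 2555 CPM, each higher in every next bin. Ngp was 77.2, 95, 66.6 and 4942 CPM, so it was flat over the first 3 bins and high only in the last. Mmp9 was 2674, 2745, 2835 and 3332 CPM. The correlation with the granule list was 0.52 for Retnlg, 0.50 for Ngp, 0.48 for S100a8 and 0.10 for Mmp9, and that with the 14 genes of the activated list was -0.49 for Ngp, -0.40 for Retnlg, -0.18 for S100a9 and -0.01 for Mmp9. Of the 2643 barcodes 2526 held 4 or more UMIs per 500 of the activated list, and 19, 32 and 66 held 0, 1 and 2 to 3. Bins of that list are therefore not read as a graded series. Correlation with log2 depth lay between 0.10 and 0.24 for the 8 genes.
The 8 genes themselves were left out of both rankings that follow, so a closest gene is one outside the 8. By the same measure over 1653 genes, Ifitm6 was the closest gene to Ngp (0.66), Retnlg (0.59), Mmp8 (0.52) and Ltf (0.49), Lcn2 to S100a8 (0.46) and S100a9 (0.38), and Chil3 to Camp (0.41). For Mmp9 the closest, Tmsb4x, reached 0.15, which in sparse counts is no finding. Across 25 classes by library, points that share their library's free RNA, the closest genes were Stfa2l1 for S100a8 (0.96) and S100a9 (0.96), Cstdc4 for Ngp (0.94), Wfdc21 for Camp (0.93) and Ltf (0.97), Fpr1 for Mmp8 (0.97), Acod1 for Mmp9 (0.95) and Slc7a11 for Retnlg (0.94).

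Sub-clustering of the CP neutrophil-like barcodes, again without the 8 genes, gave 7 groups. One of 106 barcodes, led by Stfa3, Gpr27 and Adpgk, held 76 of the 77 small-cluster barcodes and had 26947 CPM of Ngp and 28887 CPM of Retnlg. A group of 548 led by the stefin genes Cstdc4, Stfa1 and Stfa2l1 whose near-identical copies may share reads, had 16903 CPM of S100a8, 2812 CPM of Retnlg and 1013 CPM of Mmp8 with 130 CPM of Ngp. The 504 barcodes led by Il23a and Il1a had 7219 CPM of S100a8 and 347 CPM of Retnlg, and the 982 led by Gm19951 and Jmy had 6602 and 396 CPM. A group of 140 led by the interferon-induced genes Ifit2, Ifit3 and Rsad2 had 8922 CPM of S100a8 and 55.9 CPM of Ngp. Mmp9 lay between 2205 and 3373 CPM in these 4 groups and in the 337 barcodes led by Cyp1b1 and Olfml3, genes that fibroblasts express. A last group of 26 led by Gpnmb was low in calprotectin, with 993 CPM of S100a8 and 649 CPM of Mmp9.

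Outside neutrophils the CP library carried all 8 genes at a low and even share in most named classes. CP B cell-like, fibroblast-like and mesothelial-like cells had between 1.23% and 3.15% of the neutrophil level of each gene. Per UMI of S100a9, fibroblast-like cells held S100a8 at 0.932, Ngp at 0.805, Mmp9 at 0.820 and Retnlg at 1.05 of the proportion in neutrophil-like cells. The mixture there was close to that of neutrophil RNA, with Mmp8 lowest at 0.497. Mesothelial-like cells lay between 0.538 (Mmp8) and 1.08 (Retnlg). B cell-like cells lay further from it, between 0.491 (Ltf) and 0.864 (Camp). In CP+EVs the same classes had between 0 and 0.0598% of the neutrophil level. S100a9 stood at 7.47 CPM in CP+EVs fibroblast-like cells and 399 CPM in CP fibroblast-like cells, a gap of the same order as that of the whole library. Levels this low and this even across classes are the background of each library and were not read as expression. The 3357 unnamed CP barcodes stood higher, between 7.60% (Mmp8) and 26.3% (Camp) of the neutrophil level. Without their granule-rich barcodes, described above, the range was 6.71% (Ltf) to 18.1% (Camp). The source of these UMIs was not tested.
Some classes departed from that mixture. Retnlg stood at 1085 CPM in 50 eosinophil-like cells of CP+EVs and at 9564 CPM in 492 of CP. In CP that was 250% of the neutrophil level and 37.1 times its share of the mixture. It was found in 80.7% of thinned CP eosinophil-like barcodes, against 22.0% of neutrophil-like and 6.62% of B cell-like ones, and the richest 50 barcodes held only 38.9% of its 6003 UMIs. In CP+EVs 11 of the 50 eosinophil-like barcodes held its 59 UMIs. S100a8 in the same cells was at 0 UMIs in CP+EVs and 787 CPM in CP, 0.774 of the mixture. Mmp9 in eosinophil-like cells was 184 CPM in CP+EVs, from 10 UMIs, and 390 CPM in CP.
Macrophage or monocyte-like cells held Mmp8 at 11.6 CPM in CP+EVs and 80.3 CPM in CP, 2.05 times the mixture in CP, and Mmp9 at 9.39 CPM in CP+EVs and 138 CPM in CP, 1.35 times. In CP+EVs, set against the neutrophil-like cells of the same library, Mmp8 was at 14.1 times the mixture (10.1 to 19.5). Mmp9 was at 16.2 times (11.1 to 23.3). The 47 Mmp8 UMIs lay in 15 of 508 cells, and the ratios rest on 20 UMIs of S100a9 in the class. S100a8 was above the mixture too, at 1.81 times (1.28 to 2.50) in CP+EVs and 1.18 times (1.15 to 1.21) in CP. Ngp, Ltf and Retnlg were below it in CP, at 0.778, 0.761 and 0.596 times. Whether cells of this class make the S100a9 that each ratio is set against was not tested. CP+EVs T cell-like cells had 18 Mmp9 UMIs in 12 of 513 cells, 9.62 times the mixture of their own library (5.55 to 15.7), beside 16 UMIs of S100a9. The CP T cell-like class had 337 CPM of Ngp, of which 1 granule-rich barcode gave most: without it the level was 68.5 CPM.

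**Figure D5:**
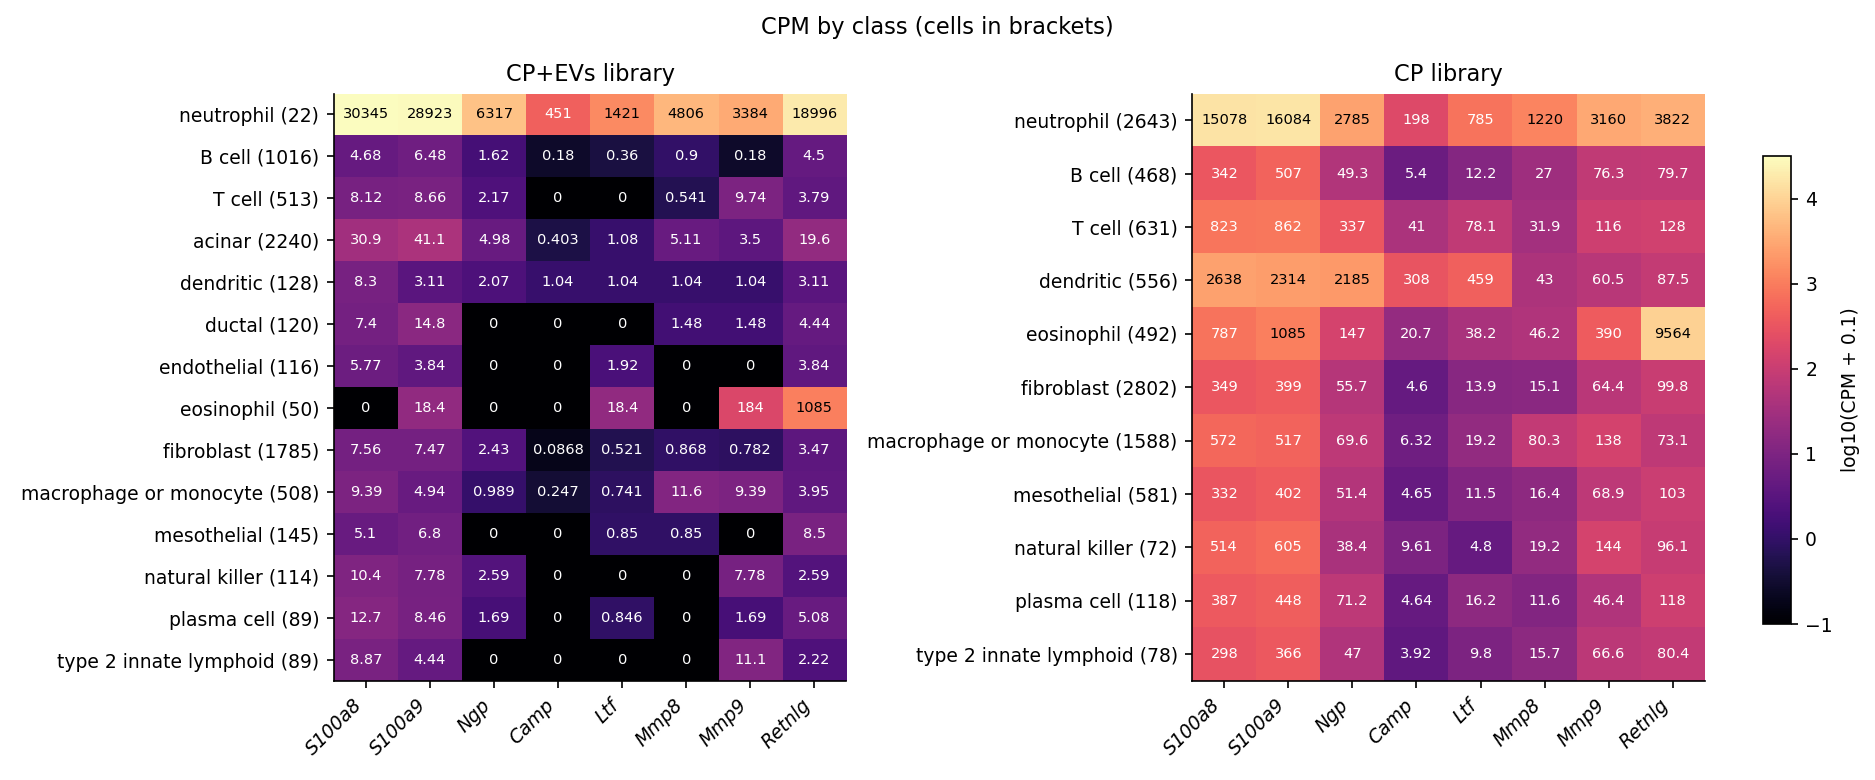
CPM of each gene by class in CP+EVs (left) and CP (right), for named classes of at least 20 cells, coloured by log10(CPM + 0.1). Unnamed barcodes are not shown. The 8 genes were highest in neutrophil-like cells except Retnlg in CP eosinophil-like cells and Camp in the CP dendritic-like class, which holds the 24 granule-rich barcodes.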

How the data were processed

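Values are raw UMI counts of each gene in each barcode as deposited, without normalization, per the file headers. The submitters' processing notes list CASAVA 1.8, UMI-tools, Seurat and the mm10 build. The aligner and cell caller are not stated in what was used here. The shallowest barcode held 501 UMIs.

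Barcodes under 200 genes or above 25% mitochondrial UMIs were removed. With scanpy 1.11.5 the libraries were clustered together, without integration, on 2000 variable genes that left out the 8 genes and the granule lists, with 30 components, 15 neighbours and Leiden resolution 1. A class needed 3 markers with a log2 fold above 1 over the median cluster of the same library in at least 10% of cells; a name was refused where 70% or more of the markers of another, unrelated class passed, and these limits were set after the data were seen. A class name means likeness to that cell type. Doublets were not called or removed, so mixed barcodes may remain.

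Counts were summed per class and library as CPM, with exact Poisson intervals, Clopper-Pearson intervals for shares and conditional exact intervals for ratios. A log2 ratio used a pseudocount of 0.5. Genes entered a comparison at 20 CPM in 1 group and 20 UMIs in all. Shares and correlations used barcodes thinned to 500 UMIs. Scripts were tested on simulated data. Named genes were the 8, the 3 genes outside the 8 most correlated with each, up to 4 of each list by level, and the leading genes of sub-clusters. Other genes named for the granule-rich barcodes and both clusters were chosen after their values were seen. The 8 genes and the lists were chosen with earlier results of these data known.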

Additional observations from a re-analysis of the deposited data

How the results depend on the processing

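No paired analysis was possible because each group was 1 library. Of 372 single values recomputed under the alternatives, 254 stayed within the counting interval (for correlations within 0.1, for levels in other classes within 1.5 times), 114 moved beyond it and 4 changed sign. All 8 genes were at least 2-fold lower in CP+EVs over all kept cells under each of the 3 alternatives tried; the median log2 ratio of -5.54 became -4.70 as a mean of per-cell values. Within neutrophil-like cells the median log2 ratio of 1.10 became 0.75 with the granule genes kept in the clustering, 1.31 as a mean of per-cell values and -0.36 in the large cluster alone, an alternative chosen after seeing the data. In that cluster the log2 ratio was -1.09 for Ngp, -0.80 for Camp and -2.55 for Ltf with the pseudocount, from 4, 0 and 0 UMIs in CP+EVs, and these are no bounds. The count of genes at least 2-fold higher was 5 and became 2 with the granule genes kept in the clustering, under median-of-ratios scaling and in the large cluster alone. The CP neutrophil-like share became 23.0% at 500 genes per cell. The median share of CP neutrophil-like barcodes with a gene was 19.2% and became 27.7% when thinned to 1000 UMIs, 16% without barcodes holding 3 or more UMIs of markers of another class, and 17.0% in the large cluster alone. That marker limit removed 2309 of 2643 barcodes. The median pair correlation of 0.30 became 0.12 without those barcodes, where Camp with Mmp8 turned to -0.027, and 0.14 in the large cluster alone. The median log2 ratio between barcodes rich and poor in the granule list, 3.97, became 2.10 without those barcodes and 2.95 in the large cluster. Over all lists 11 genes were at least 2-fold lower and 8 higher in CP+EVs neutrophil-like cells, and at 100 CPM and 100 UMIs 6 were lower. With no filter on low values 29 were higher. These include genes with 0 UMIs in CP+EVs that only the pseudocount put above 2-fold, such as Mpo with 14 UMIs in CP and Elane with 28. The 29 are therefore no count of genes higher in CP+EVs. Beyond what construction shows, the cause of each change was not tested. Depth limits Camp and Ltf most: 17 CP+EVs barcodes of the large cluster held 25737 UMIs in all.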

Other observations

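Retnla, a resistin family gene of alternatively activated macrophages and a paralogue of Retnlg, was higher in CP+EVs than in CP in macrophage or monocyte-like cells. Retnla stood at 12909 CPM in macrophage or monocyte-like cells of CP+EVs and 21.5 CPM in those of CP, where Retnlg stood at 3.95 CPM in CP+EVs and 73.1 CPM in CP. In eosinophil-like cells Retnla stood at 1986 CPM in CP+EVs and 1149 CPM in CP, beside the 1085 and 9564 CPM of Retnlg. Per UMI of S100a9, Retnlg in CP+EVs macrophage or monocyte-like cells was 1.22 times (0.693 to 1.99) the proportion in neutrophil-like cells of that library. In CP it was 0.596 times (0.557 to 0.637). Retnlg in this class was thus taken as background in both libraries, and its difference was not read as a change in expression. In all kept cells 1 of the 3 other resistin family genes passed the filter on low values, and it was at least 2-fold higher in CP+EVs.

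In the 22 CP+EVs neutrophil-like barcodes S100a9 was found in 100% and Retnlg in 72.7% after thinning to 500 UMIs, against 91.0% and 22.0% of the 2643 CP barcodes. Both figures include the 5 small-cluster barcodes; in the large cluster Retnlg was found in 64.7% of CP+EVs barcodes (38.3 to 85.8) and 19.7% of CP barcodes (18.2 to 21.3).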
